A study of Mus musculus with 6 samples.

Results

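Basement membranes are thin sheets of extracellular matrix that underlie epithelia and surround muscle, nerve and vessels. Laminins, trimers of an α, a β and a γ chain, polymerise into one network, and collagen IV forms another. Nidogens and the heparan sulfate proteoglycan perlecan link both networks. Fibroblasts secrete many of these proteins into the stroma of the gut, where epithelial cells contribute chains of their own. The genes described here are the laminin chain genes Lama2, Lama4, Lama5, Lamb1, Lamb2 and Lamc1, the nidogen genes Nid1 and Nid2, and the perlecan gene Hspg2. They were chosen by symbol, make up 9 of the 55401 genes in the table, and all 9 passed the filter on low counts.

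RNA-seq was carried out on cultured cancer-associated fibroblasts (CAFs), stromal cells of a tumour that lay down much of its matrix. The tumours had grown in the rectum of mice from implanted mouse tumour organoids (MTOs). The host mice were Thbs2KO, knocked out for the gene of the secreted matricellular protein thrombospondin-2, or wild type (WT). Each group had 3 libraries, and the cells of both groups were grown on fibronectin-coated plates in medium with serum. The labels do not describe the knockout allele, the age of the mice or the genotype of the organoids. They do not say whether replicates came from separate mice either, so each p-value reflects the spread between libraries, which may be technical.

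Total expected counts ran from 19649066 to 20860335 in Thbs2KO libraries and from 23061568 to 24417464 in WT libraries. Thbs2, the targeted gene, measured 412 to 538 CPM (counts scaled to a common library size with TMM factors) in Thbs2KO and 2327 to 4166 CPM in WT (log2 fold change -2.89 with SE 0.25; Benjamini-Hochberg adjusted p = 0.00521 by edgeR). Thbs2KO replicates 1 and 2 were much more alike than any other pair: the chi-square of their counts, divided by its degrees of freedom, was 3.88, against 15.6 to 121.7. Whether they are separate samples cannot be told, so counts are also given in the closing section with the pair summed. All 10 fibroblast markers reached 1 CPM in every library. Of 10 endothelial markers, Kdr (21.5 to 45.0 CPM in Thbs2KO and 2.497 to 26.3 CPM in WT), Flt1 and Tek reached 1 CPM in every library, while the others, Pecam1 and Cdh5 among them, stayed at or below 0.733 CPM. Of 8 leukocyte markers, Csf1r alone did so, at 1.22 to 1.84 CPM in Thbs2KO and 1.85 to 2.39 CPM in WT. Lyz2 ran from 0.440 to 5.52 CPM in Thbs2KO and from 1.27 to 10.3 CPM in WT, and Ptprc stayed at or below 0.168 CPM. Summed over 10 epithelial markers, the level was 12.5 to 18.1 CPM in Thbs2KO and 24.8 to 34.1 CPM in WT. Summed over 10 pericyte and smooth muscle markers it was 420, 557 and 430.1 CPM in Thbs2KO replicates 1, 2 and 3, against 410.1, 1407 and 1043 CPM in WT replicates 1, 2 and 3.

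By CPM per kb of transcript, Nid1, Hspg2, Lamb1 and Lamc1 ranked 218, 471, 626 and 826 among 13584 tested genes, while Lama5 ranked 10938, and none of the 9 differed between Thbs2KO and WT past the threshold. By the edgeR quasi-likelihood test, 0 of 9 had a Benjamini-Hochberg adjusted p under 0.05, against 1.09% of the 13590 genes tested, and the smallest adjusted p was 0.255, for Lama5. DESeq2 called 1 of 9, Lama5, against 5.15% of the genes to which it gave an adjusted p. At an unadjusted p under 0.05 there were 3 of 9, Lama5 and Hspg2 lower and Lama4 higher in Thbs2KO, against 13.3% of all tested genes (7.56% lower and 5.72% higher in Thbs2KO). With Thbs2KO replicates 1 and 2 summed, 0 of 9 were called by edgeR, against 0.286% of genes. Groups did not overlap for 2 of 9, Lama4 and Hspg2, against 19.7% of all tested genes. The median log2 fold change was -0.12 over the 9 genes and -0.00377 over all tested genes. In bulk RNA, fewer cells that express a gene and less RNA per cell cannot be told apart.

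**Figure D1:**
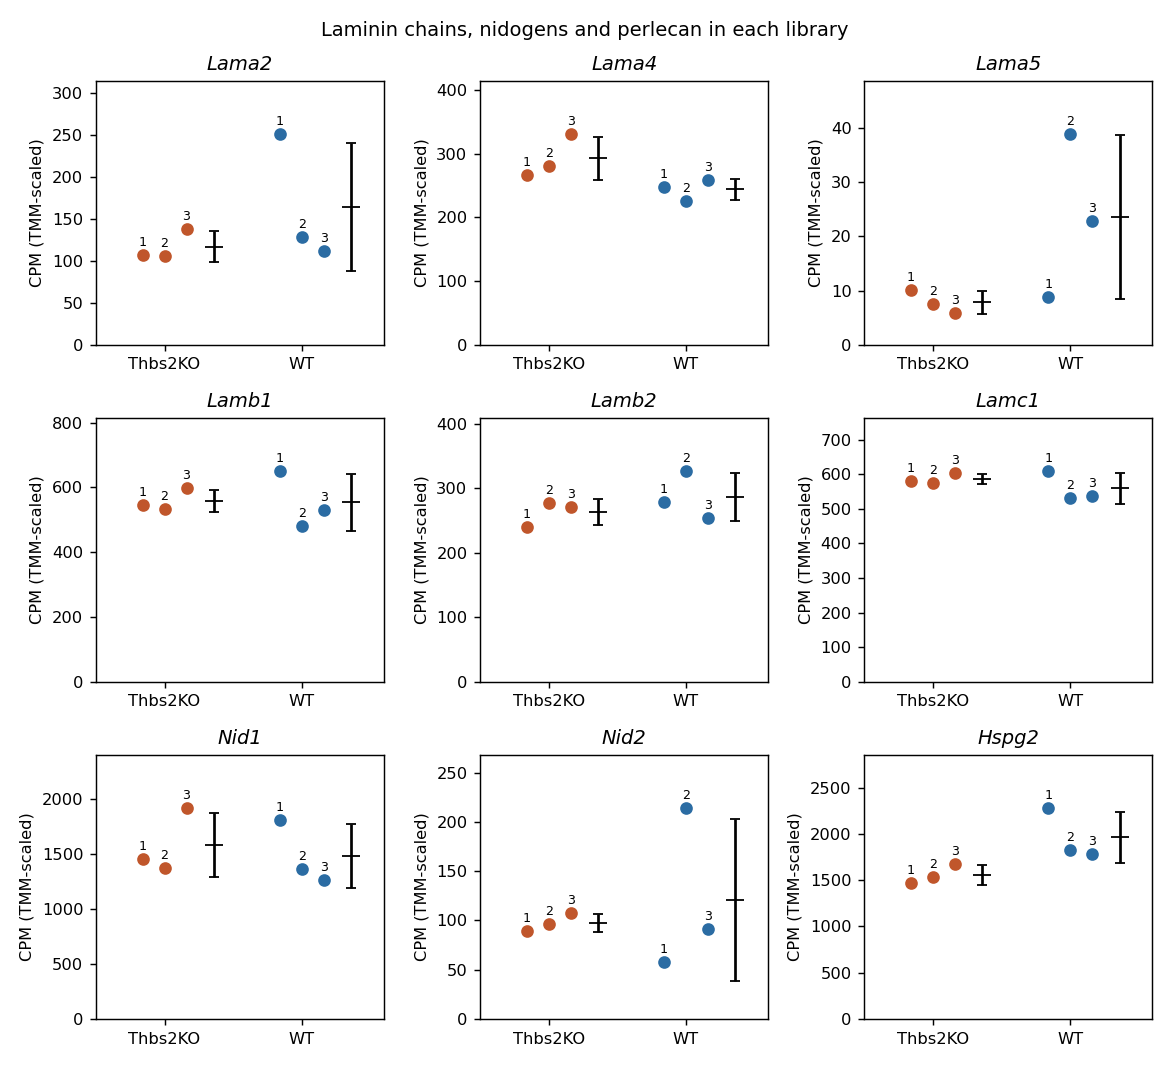
CPM of each of the 9 genes (one panel per gene, vertical axis from 0) in the 3 Thbs2KO libraries (orange) and the 3 WT libraries (blue), with replicate numbers above the points and the mean ± SD beside them in black. The groups are apart for Lama4 and Hspg2 and overlap for the other genes, and WT replicate 1 or 2 stands away from the other WT libraries for Lama2, Lama5 and Nid2.

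The sequences before the RefSeq starts of Hspg2, Lama5 and Lama2 are shown because Hspg2 and Lama5 had the smallest unadjusted p among the 6 genes with a RefSeq promoter entry, and because Lama2, which shared its highest library with Hspg2, differs from both in base composition. Each runs 5′ to 3′ along the gene's strand from 250 to 51 bases before the RefSeq start (GRCm38.p6), and capitals mark GGGCGG or its complement CCGCCC, the core of the GC box that Sp1 family factors bind. Their positions are chr4:137468553-137468752 (plus strand), chr2:180225910-180226109 (minus strand) and chr10:27616993-27617192 (minus strand) for Hspg2, Lama5 and Lama2. The RefSeq start of Lama2 lies 2.82 kb inside the GENCODE gene, so its stretch is not upstream of the 5′ end given for that gene here. For the other 5 genes the starts differ by at most 126 bases.
Hspg2: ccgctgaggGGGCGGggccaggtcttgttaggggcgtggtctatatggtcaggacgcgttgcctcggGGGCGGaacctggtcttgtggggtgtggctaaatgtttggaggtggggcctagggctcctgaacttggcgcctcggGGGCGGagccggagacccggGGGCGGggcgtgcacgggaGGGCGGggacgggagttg
Lama5: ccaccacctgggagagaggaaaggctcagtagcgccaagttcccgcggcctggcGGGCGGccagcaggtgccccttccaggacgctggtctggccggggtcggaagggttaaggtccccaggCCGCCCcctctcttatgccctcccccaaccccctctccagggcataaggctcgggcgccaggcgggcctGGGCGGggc
Lama2: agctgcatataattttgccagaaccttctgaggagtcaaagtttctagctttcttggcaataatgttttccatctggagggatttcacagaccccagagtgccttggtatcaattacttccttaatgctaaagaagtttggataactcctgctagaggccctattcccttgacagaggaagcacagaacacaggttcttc

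Over the whole 300-base windows, which end 50 bases after the start, the motif was found on either strand 5 times for Hspg2, 4 times for Lama5, 2 times for Lamb1, once for Lama2 and Nid1, and not in the Lamb2 window. Of 32851 promoter windows of that length in the RefSeq table, 35.7% held it. GC content was 70.3% for Hspg2, 72.7% for Lama5, 64.7% for Nid1, 63.7% for Lamb1, 50.3% for Lama2 and 44.0% for Lamb2, against a median of 52.7% over all windows. TATAAA (13.6% of windows) and TGACTCA (5.2% of windows) were in none of these 6 windows, and GGAATG (14.7% of windows) was only in that of Nid1. These are matches of letters, searched on both strands, and say nothing of which factors bind.

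A laminin is named by its α, β and γ chains, and the α chain carries the main cell-binding domain. Lama4 (chromosome 10, 38965515 to 39110188, plus strand) encodes α4, a chain with a truncated short arm that is common in mesenchymal and vascular basement membranes. Its level was 267, 280.2 and 331 CPM in Thbs2KO replicates 1, 2 and 3, against 248, 226 and 258 CPM in WT replicates 1, 2 and 3. Every Thbs2KO library lay above every WT library, though Thbs2KO replicate 1 and WT replicate 3 were close. The means were 293 ± 34.2 CPM in Thbs2KO and 244 ± 16.6 CPM in WT (SD, n = 3 each). The log2 fold change was 0.26 (SE 0.11, 95% interval 0.01 to 0.52, edgeR, Benjamini-Hochberg adjusted p = 0.356), and it was 0.16 without Thbs2KO replicate 3.

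Lama2 (chromosome 10, 26980036 to 27619758, minus strand) lies 11.3 Mb from Lama4 and encodes α2, the chain of muscle and peripheral nerve laminins whose loss causes a congenital muscular dystrophy in humans. It measured 107, 106 and 138 CPM in Thbs2KO replicates 1, 2 and 3, against 252, 128 and 112 CPM in WT replicates 1, 2 and 3. A single library, WT replicate 1, stood far above the other 5, which overlapped. The log2 fold change was -0.49 (SE 0.31, 95% interval -1.24 to 0.26, edgeR, Benjamini-Hochberg adjusted p = 0.599), and -0.04 without WT replicate 1.

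Lama5 (chromosome 2, 180176373 to 180225859, minus strand) encodes α5, the widespread α chain of epithelial and vascular basement membranes. It was the lowest of the 9 genes, with 212, 154 and 119 expected counts in Thbs2KO replicates 1, 2 and 3 and 203, 890 and 546 in WT replicates 1, 2 and 3. Scaled, these were 10.02, 7.54 and 5.82 CPM in Thbs2KO, against 8.74, 39.0 and 22.9 CPM in WT. WT replicates 2 and 3 stood above all other libraries, and WT replicate 1 lay within the Thbs2KO range. The log2 fold change was -1.59 (SE 0.52, 95% interval -2.84 to -0.35, edgeR, Benjamini-Hochberg adjusted p = 0.255). DESeq2 gave an adjusted p of 0.0233 and edgeR without WT replicate 1 gave 0.0369, when 2.89% of genes were called. Without WT replicate 2 the log2 fold change was -1.01 (edgeR, Benjamini-Hochberg adjusted p = 0.513), and over all alternatives the adjusted p ran from 0.0233 to 0.541.

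Genes listed as markers of other cell types also varied between libraries. The pericyte and smooth muscle sums given above were high in WT replicates 2 and 3 and low in WT replicate 1 and all Thbs2KO libraries. Lama5 had the same pattern. Of the 9 tested markers, 0 were called by edgeR, against 1.09% of all tested genes. At an unadjusted p below 0.05, 5 were lower in Thbs2KO, against 7.56% of all tested genes. Actg2 of this list had the pattern, at 86.3, 104 and 69.2 CPM in Thbs2KO and 100, 442 and 298 CPM in WT, as did Myh11, Cnn1 and Lmod1. So did Acta2, not on the list, at 1832, 2028 and 2267 CPM in Thbs2KO and 2289, 4345 and 4868 CPM in WT. Cspg4 did not, at 100, 161 and 93.4 CPM in Thbs2KO and 61.0, 139 and 76.5 CPM in WT. Des did not either, at 71.3, 105 and 93.8 CPM in Thbs2KO and 11.5, 175 and 74.3 CPM in WT. Notch3, Kcnj8 and Rgs5 also lacked the pattern, and Mcam was lower in every Thbs2KO library than in every WT library. Which cells express these genes, the CAFs themselves included, was not tested. The epithelial sum was lower in each Thbs2KO library than in each WT library, WT replicate 1 included at 30.3 CPM. By edgeR 0 of 7 tested markers were called, against the same 1.09%. At an unadjusted p below 0.05, 2 were lower in Thbs2KO, against the same 7.56%. Those were Krt19, at 5.77, 6.21 and 3.57 CPM in Thbs2KO and 14.6, 9.86 and 13.8 CPM in WT, and Krt20, at 0.378, 0.440 and 0.147 CPM in Thbs2KO and 1.38, 1.53 and 3.23 CPM in WT. Epcam measured 0.473, 0.294 and 1.17 CPM in Thbs2KO and 0.646, 1.36 and 1.80 CPM in WT, where 3 counts come to 0.126 to 0.147 CPM. The part of either cell type in the Lama5 values was not tested.

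The β chain is shared by many laminins. Lamb1 (chromosome 12, 31265234 to 31329644, plus strand) encodes β1, the β chain of most tissues, and Lamb2 (chromosome 9, 108479736 to 108490530, plus strand) encodes β2, best known from the neuromuscular junction and the kidney glomerulus. Lamb1 measured 545, 534 and 598 CPM in Thbs2KO replicates 1, 2 and 3, against 651, 482 and 529.9 CPM in WT replicates 1, 2 and 3. The WT libraries thus spanned the whole Thbs2KO range. The means were 559 ± 34.4 CPM in Thbs2KO and 554 ± 87.3 CPM in WT (SD, n = 3 each), with a 95% interval of the log2 fold change from -0.29 to 0.31 (edgeR, Benjamini-Hochberg adjusted p = 0.984). Lamb2 measured 241, 278 and 271 CPM in Thbs2KO, against 279, 327 and 255 CPM in WT. The groups overlapped, and the 95% interval ran from -0.40 to 0.15 on the log2 scale (edgeR, Benjamini-Hochberg adjusted p = 0.737).

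Lamc1 (chromosome 1, 153218922 to 153332786, minus strand) encodes γ1, the γ chain of most laminins and the chain to which nidogen binds. It had the narrowest interval of the 9 genes. Its level was 581, 574 and 604 CPM in Thbs2KO replicates 1, 2 and 3, against 609, 530.4 and 537 CPM in WT replicates 1, 2 and 3. WT replicate 1 exceeded all Thbs2KO libraries, and the other 2 WT libraries lay below them. The 95% interval of the log2 fold change ran from -0.13 to 0.27 (edgeR, Benjamini-Hochberg adjusted p = 0.817).

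Nid1 (chromosome 13, 13437551 to 13512269, plus strand) encodes nidogen-1, the bridge between laminin γ1 and collagen IV. It measured 1454, 1376 and 1917 CPM in Thbs2KO replicates 1, 2 and 3, against 1811, 1363 and 1261 CPM in WT replicates 1, 2 and 3. One library in each group, Thbs2KO replicate 3 and WT replicate 1, stood above the rest, and the 95% interval of the log2 fold change ran from -0.35 to 0.54 (edgeR, Benjamini-Hochberg adjusted p = 0.897). Nid2 (chromosome 14, 19751265 to 19811787, plus strand), which encodes its relative nidogen-2, measured 89.0, 96.1 and 107 CPM in Thbs2KO, against 57.9, 214 and 90.9 CPM in WT. The WT group held both the highest and the lowest library. The log2 fold change of -0.31 (95% interval -1.38 to 0.75, edgeR, Benjamini-Hochberg adjusted p = 0.852) became 0.40 without WT replicate 2. Of the 9 genes, 3 share exon bases with another gene on the opposite strand, which this kit cannot separate. For Nid2 the partner, Rtraf, measured 98.7 to 115 CPM over a shared 437 bases, while Gm48682 over Nid1 and Gm48084 over Lama2 were listed at 0.

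Hspg2 (chromosome 4, 137468769 to 137570630, plus strand) encodes perlecan, whose heparan sulfate chains hold growth factors such as FGF2. It measured 1467, 1529 and 1676 CPM in Thbs2KO replicates 1, 2 and 3, against 2279, 1822 and 1782 CPM in WT replicates 1, 2 and 3. The 3 Thbs2KO libraries were all lower than the lowest WT library. The means were 1557 ± 108 CPM in Thbs2KO and 1961 ± 276 CPM in WT (SD, n = 3 each). The log2 fold change was -0.33 (SE 0.12, 95% interval -0.63 to -0.04, edgeR, Benjamini-Hochberg adjusted p = 0.317), and -0.21 without WT replicate 1. When WT replicate 1 was left out together with Thbs2KO replicate 3, and 11.2% of genes were called, Hspg2 was the 1 of the 9 genes that passed (log2 fold change -0.27, edgeR, Benjamini-Hochberg adjusted p = 0.0175). Over all alternatives its adjusted p ran from 0.0175 to 0.661.

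**Figure D2:**
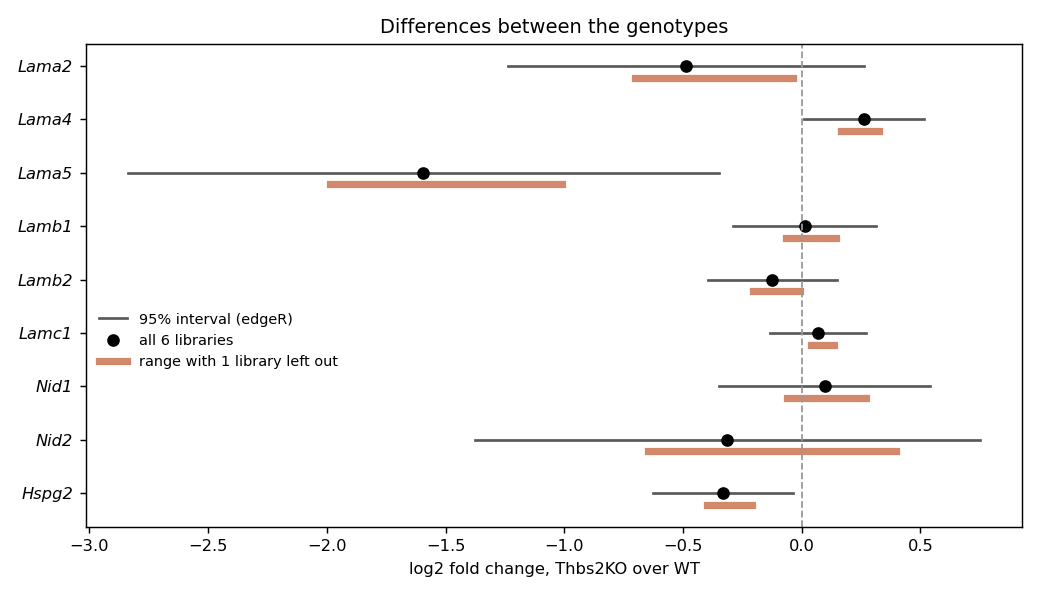
Log2 fold change of each gene, Thbs2KO over WT (horizontal axis), with all 6 libraries (black point), its 95% interval from edgeR (grey line) and the range of the estimate when each library was left out in turn (orange bar). Lama5 has the estimate farthest from 0 (-1.59). The ranges for Lamb1, Nid1 and Nid2 cross 0, that for Nid2 from -0.65 to 0.40.

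Libraries of the same genotype did not move as one. Relative to its mean over the 6 libraries, on the log2 scale, Lama2 stood at 0.92 in WT replicate 1 and Nid2 at -0.80, while Nid2 stood at 1.09 in WT replicate 2. Lama5 stood at 1.66 in WT replicate 2 and at -0.49 in WT replicate 1. Among Thbs2KO libraries, replicates 1 and 2 were close to each other in most genes, and replicate 3 was the highest of that group for Lama2, Lama4, Lamb1, Lamc1, Nid1, Nid2 and Hspg2 and the lowest for Lama5. Thbs2KO replicate 3 also had the highest summed level of the 10 fibroblast markers, at 51747 CPM, against 34214 and 32695 CPM in Thbs2KO replicates 1 and 2 and 33108 to 38079 CPM in WT libraries.

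**Figure D3:**
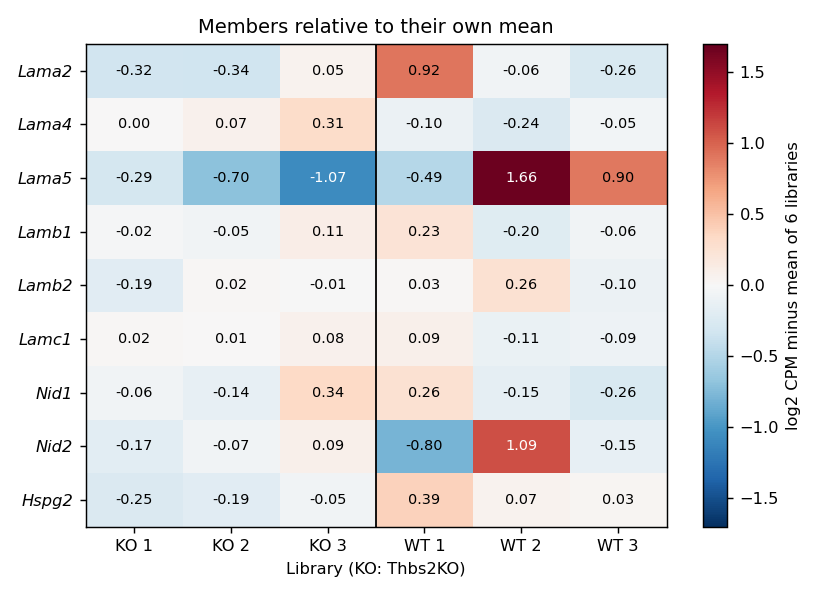
Level of each gene in each library as log2 CPM minus the gene's mean over the 6 libraries (colour and printed value), with Thbs2KO libraries left of the line and WT libraries right of it. WT replicate 1 is high for Lama2 (0.92) and low for Nid2 (-0.80), and WT replicate 2 is high for Lama5 (1.66) and Nid2 (1.09).

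The genes with the most similar pattern were sought by Pearson correlation of log2 CPM over the 6 libraries, among 10163 genes averaging 5 CPM or more. For Lama5 these were Rell1 (r = 0.995), Got1 (0.989) and Zdhhc12 (0.989). For Hspg2 they were Prrx2 (0.998), Hsd17b7 (0.995) and Smad3 (0.994), and for Lama4 they were Fancg (0.983), Clec11a (0.98) and Klhl22 (0.978). With 6 libraries, which fall into a Thbs2KO and a WT group, and with this many genes ranked, high values arise readily. The correlations are therefore a description only.

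To ask which laminin trimers the CAFs could assemble, levels were divided by the length of the longest coding transcript of each gene, since CPM of genes of different length cannot be compared. On this scale, CPM per kb, the order of the 6 chains by mean level was Lamb1, Lamc1, Lamb2, Lama4, Lama2 and Lama5. Lamb1 stood at 92.3 to 103 in Thbs2KO and 83.3 to 113 in WT, and Lamc1 at 75.3 to 79.2 in Thbs2KO and 69.6 to 79.96 in WT. Lamb2, at 42.7 to 49.3 in Thbs2KO and 45.3 to 58.2 in WT, and Lama4, at 44.1 to 54.8 in Thbs2KO and 37.3 to 42.7 in WT, changed places between libraries. Lama2 followed at 10.98 to 14.4 in Thbs2KO and 11.6 to 26.2 in WT, and Lama5 at 0.511 to 0.880 in Thbs2KO and 0.767 to 3.42 in WT. Lamb1 and Lamc1 were neighbours whose order turned when all exons or the coding length were used instead, and Lama4, Lama2 and Lama5 kept their order in every library and, by mean level, with each measure of length.

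Of Lama1, Lama3, Lamb3 and Lamc3, Lama1 alone reached 1 CPM in every library. Lama1, the α1 chain of embryonic and kidney basement membranes, measured 35.7, 37.6 and 60.4 CPM in Thbs2KO replicates 1, 2 and 3, against 7.96, 30.4 and 18.5 CPM in WT replicates 1, 2 and 3. The groups did not overlap, and the log2 fold change was 1.23 (95% interval 0.12 to 2.35, edgeR, Benjamini-Hochberg adjusted p = 0.326). Lama3 ran from 0.930 to 1.47 CPM in Thbs2KO and 0.732 to 1.36 CPM in WT, Lamb3 from 0.196 to 0.615 CPM in Thbs2KO and 0.258 to 1.55 CPM in WT, and Lamc3 reached at most 0.245 CPM in Thbs2KO and 0.570 CPM in WT.

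**Figure D4:**
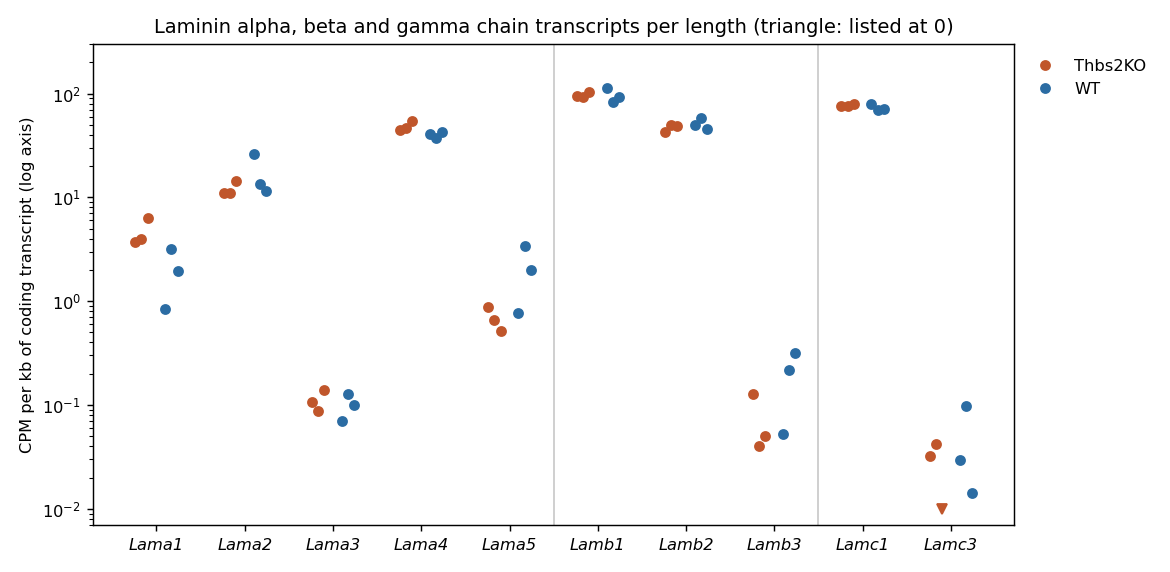
Level of 10 laminin chain genes in CPM per kb of coding transcript (logarithmic vertical axis), one point per library, Thbs2KO orange and WT blue, with α, β and γ chains separated by lines. Lama4, Lamb1, Lamb2 and Lamc1 lie between 37.3 and 113 in every library, while Lama3, Lamb3 and Lamc3 stay at or below 0.319.

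Of 14 trimers in a list of described laminins, 8 had all 3 chains at 1 CPM or more in every Thbs2KO library, and 8 in every WT library. The 8 were the same in both groups: laminins 111, 121, 211, 221, 411, 421, 511 and 521. This cut-off was not divided by length, and the set depends on it. Per kb, Lama5 was below 1 in every Thbs2KO library and in WT replicate 1 (0.767). Lama1 was below 1 per kb in WT replicate 1 (0.836). At 1 CPM per kb, laminins 511 and 521 would thus fall short in both groups, and 111 and 121 in WT. Laminins 311 and 321 lacked Lama3 at that level, and laminins 213, 423, 513 and 523 lacked Lamc3. In all 8 the α chain had the lowest mean transcript level per kb of the 3, though in Thbs2KO replicates 1 and 3 Lamb2 was lower than Lama4. The lowest chain of laminin 411 stood at 44.1 to 54.8 CPM per kb in Thbs2KO and 37.3 to 42.7 in WT, and that of laminin 211 at 10.98 to 14.4 in Thbs2KO and 11.6 to 26.2 in WT. For laminin 511 it was 0.511 to 0.880 in Thbs2KO and 0.767 to 3.42 in WT. Transcripts of each chain say nothing of translation, assembly or secretion, which were not measured.

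Lama4 supplied most α chain transcript per length, with 72.1% to 74.8% of the sum of Lama1, Lama2, Lama4 and Lama5 in Thbs2KO and 59.6% to 73.3% in WT. Lama2 made up 18.6%, 17.7% and 18.9% in Thbs2KO replicates 1, 2 and 3, against 38.0%, 23.3% and 19.9% in WT replicates 1, 2 and 3. Lama5 made up 0.672% to 1.47% in Thbs2KO and 1.11% to 5.98% in WT, and Lama1 6.26% to 8.34% in Thbs2KO and 1.21% to 5.58% in WT. These shares depend on the length used: over the union of exons Lama5 made up 1.20% to 2.65% in Thbs2KO and 2.04% to 10.3% in WT, and Lama1 11.1% to 14.6% in Thbs2KO and 2.19% to 9.50% in WT, while Lama4 still led with 64.3% to 67.8% in Thbs2KO and 54.8% to 66.5% in WT. The ratio of Lama2 to Lama4 within a library, which does not depend on library size, was lower in every Thbs2KO library than in every WT library, by 0.66 on the log2 scale (mean -2.00 ± 0.08 in Thbs2KO and -1.34 ± 0.63 in WT, SD, n = 3 each; two-sided exact permutation p = 0.1, the smallest that 3 against 3 allows, adjusted p = 0.5 over 5 ratios). Thbs2KO replicate 3 and WT replicate 3 were close, at -1.93 and -1.88, and the difference was -0.32 without WT replicate 1.

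The other 4 ratios overlapped between the groups. Lama5 to Lama4 averaged -6.17 ± 0.55 in Thbs2KO and -4.53 ± 1.15 in WT on the log2 scale (SD, n = 3 each; two-sided exact permutation p = 0.2, adjusted p = 0.5). Lamb1 exceeded Lamb2 per length 1.87-fold to 2.20-fold in Thbs2KO and 1.43-fold to 2.27-fold in WT (two-sided exact permutation p = 0.7, adjusted p = 0.875). Over the union of exons that ratio was 1.18 to 1.39 in Thbs2KO and 0.903 to 1.43 in WT, so Lamb2 exceeded Lamb1 in the lowest WT library. The ratio of Lamc1 to the summed α chains was 1.27, 1.22 and 1.04 in Thbs2KO and 1.16, 1.21 and 1.21 in WT (two-sided exact permutation p = 1, adjusted p = 1). It was 1.71 to 2.12 in Thbs2KO and 1.94 to 2.02 in WT over the union of exons, and 1.51 to 1.85 in Thbs2KO and 1.71 to 1.78 in WT over the coding length. Nid1 exceeded Nid2 11.5-fold to 14.3-fold in Thbs2KO and 5.10-fold to 25.1-fold in WT (two-sided exact permutation p = 0.7, adjusted p = 0.875). A further ratio was chosen after its values were seen and has no test: perlecan to laminin γ1 transcript per length was 1.36, 1.43 and 1.49 in Thbs2KO replicates 1, 2 and 3, against 2.01, 1.85 and 1.78 in WT replicates 1, 2 and 3. Over the coding length it was 0.925 to 1.02 in Thbs2KO and 1.22 to 1.37 in WT.

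**Figure D5:**
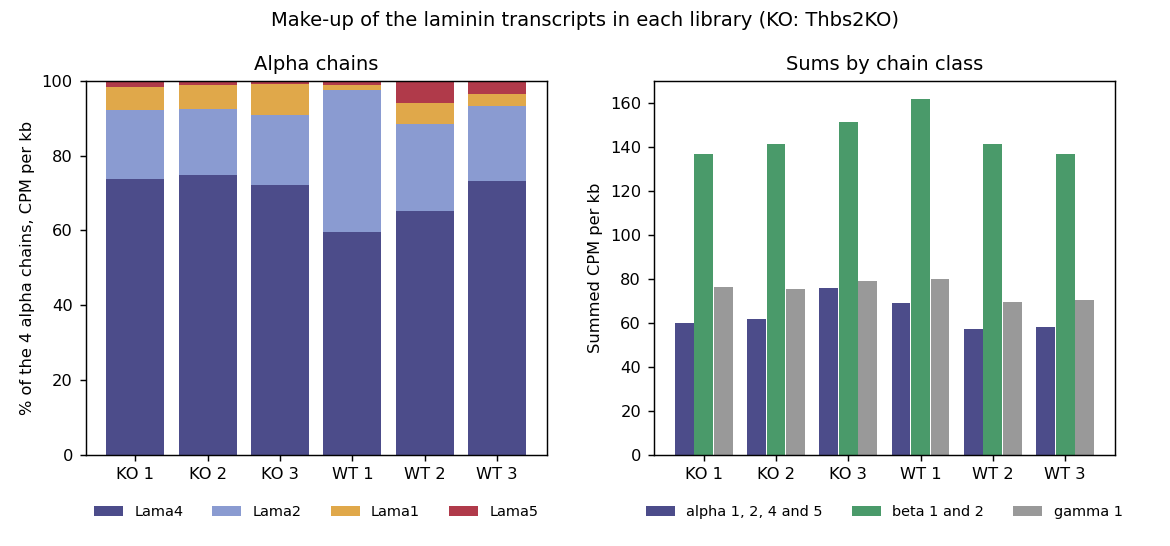
Left, share of each α chain gene in the sum of Lama1, Lama2, Lama4 and Lama5 (percent of CPM per kb) in each library. Right, CPM per kb summed by chain class in each library, with bars from 0: the β sum (137 to 152 in Thbs2KO, 137 to 162 in WT) is above γ1 and the α sum in every library.

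The wider basement membrane was examined in a list of 25 other components, of which 22 were tested. By edgeR 2 of 22 were lower and 0 higher in Thbs2KO (Benjamini-Hochberg adjusted p under 0.05), against 0.537% of all tested genes lower and 0.552% higher, with a median log2 fold change of -0.12. Ntn4, netrin-4, which binds laminin γ1 and disturbs laminin networks, fell to 4.44, 5.04 and 4.79 CPM in Thbs2KO replicates 1, 2 and 3, against 47.6, 115 and 111 CPM in WT replicates 1, 2 and 3 (log2 fold change -4.26, edgeR, Benjamini-Hochberg adjusted p = 0.00528). Tinagl1, a secreted matricellular protein of basement membranes, fell to 33.6, 30.7 and 33.4 CPM in Thbs2KO, against 77.5, 73.9 and 60.0 CPM in WT (log2 fold change -1.11 with SE 0.11; Benjamini-Hochberg adjusted p = 0.00942 by edgeR). Neither gene's groups overlapped. DESeq2 called 5 of the list, adding Npnt (lower) and, both higher in Thbs2KO, Col15a1 and Egflam. It called 5.15% of all genes to which it gave an adjusted p. Col15a1, which encodes the basement membrane zone collagen XV, measured 494, 481 and 1305 CPM in Thbs2KO, against 120.5, 27.1 and 112 CPM in WT, without overlap (log2 fold change 3.13, edgeR, Benjamini-Hochberg adjusted p = 0.1). Egflam, the gene of the dystroglycan ligand pikachurin, measured 2.60, 2.40 and 3.62 CPM in Thbs2KO, against 0.818, 1.095 and 0.671 CPM in WT, also without overlap (log2 fold change 1.73, edgeR, Benjamini-Hochberg adjusted p = 0.0588). The edgeR calls of Ntn4 and Tinagl1 were lost without Thbs2KO replicate 1 (edgeR, Benjamini-Hochberg adjusted p = 0.0544 for Ntn4 and 0.0726 for Tinagl1), and that of Tinagl1 also without Thbs2KO replicate 2 (adjusted p = 0.0644). With that pair of libraries summed the edgeR Benjamini-Hochberg adjusted p was 0.0515 for Ntn4 and 0.0711 for Tinagl1.

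The collagen IV genes, whose proteins nidogen links to laminin, overlapped between the groups. Col4a1 measured 1567, 1506 and 3287 CPM in Thbs2KO replicates 1, 2 and 3, against 3810, 3202 and 1755 CPM in WT replicates 1, 2 and 3 (log2 fold change -0.46, 95% interval -1.41 to 0.48, edgeR, Benjamini-Hochberg adjusted p = 0.716). Thbs2KO replicate 3 was thus among the high libraries and WT replicate 3 among the low ones, and Col4a2, which shares its promoter region with Col4a1, had the same order. Of 12 laminin receptor genes tested, 0 passed by edgeR, against 1.09% of all tested genes. At an unadjusted p below 0.05 there was 1, lower in Thbs2KO, against 7.56% of all tested genes in that direction. The list had a median log2 fold change of -0.14. Itgb1, the β1 subunit of most laminin-binding integrins, measured 1550 ± 95.1 CPM in Thbs2KO and 1828 ± 291 CPM in WT, and Dag1, the gene of dystroglycan, 267 ± 42.4 CPM in Thbs2KO and 259.8 ± 9.44 CPM in WT (SD, n = 3 each). The receptor genes with the smallest p were Bcam, the laminin α5 receptor of the Lutheran blood group, at 2.55, 3.67 and 4.74 CPM in Thbs2KO and 5.17, 15.7 and 6.83 CPM in WT (edgeR, Benjamini-Hochberg adjusted p = 0.278), and the syndecan gene Sdc4, at 81.4 ± 4.71 CPM in Thbs2KO and 106 ± 23.4 CPM in WT (adjusted p = 0.4).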

How the data were processed

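The authors deposited expected counts per gene for 6 libraries, 3 Thbs2KO and 3 WT. Genome build mm10 and the tools RSEM, STAR 2.7.3a and Trimmomatic 0.39 are named in the submitters' processing notes; the annotation release is not given in the sources used here. Per the labels' protocols, libraries came from a TruSeq v2 kit, which does not mark strand. From 3.80% to 3.88% of values per library were not whole and were rounded. RSEM divides reads shared by similar genes by an estimate.

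Genes passing filterByExpr were tested with edgeR 4.0.16 (TMM, robust quasi-likelihood, genotype as the only term, R 4.3.3) with Benjamini-Hochberg adjustment over all 13590 tested genes and a threshold of 0.05. Alternatives were DESeq2 1.42.0, limma-voom (limma 3.58.1), scaling by RLE or upper quartile, other filters, no robust estimation, a replicate block and libraries left out. A pseudocount of 0.5 counts was added before taking log2 for patterns and deviations. Steps were tested on simulated counts. Positions and lengths come from GENCODE M21 (GRCm38), joined by identifier without version, and promoters from RefSeq (GRCm38.p6). Named genes are all 9 members, every changed gene of the pathway lists or else the 2 with the smallest p, and the 3 most similar patterns for the members with the smallest p. Some genes that this rule names are not reported here. Others of these lists were named after their values were seen, among them Col15a1, Egflam, Npnt, Col4a1, Col4a2, Itgb1 and Dag1. The members, lists and alternatives were chosen with earlier results of these data known.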

Additional observations from a re-analysis of the deposited data

How the results depend on the processing

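The count of called members was 0 of 9 under RLE and upper-quartile scaling, limma-voom, no filter, the stricter filter, no robust estimation, the replicate block and Thbs2KO replicates 1 and 2 summed. It was 1 with DESeq2 (Lama5) and 1 with WT replicate 1 left out together with Thbs2KO replicate 3 (Hspg2), and ran from 0 to 1 with 1 library left out. The genes called over the table numbered 148 in all 6 libraries, 699 with DESeq2, 245 with no filter, 30 with the replicate block, 1519 with both libraries left out and 40 with Thbs2KO replicates 1 and 2 summed, and from 38 (without Thbs2KO replicate 1) to 397 (without WT replicate 1) with 1 library left out, with 79 when this was WT replicate 2, 49 for WT replicate 3 and 45 for Thbs2KO replicate 2. Of the other basement membrane components, 2 were called with all libraries, 5 with DESeq2, 1 with the replicate block, 7 with both libraries left out, 0 with the summed pair and 0 to 2 with 1 library left out. Over all tested genes the shares called were 1.09%, 5.15%, 0.221%, 11.2% and 0.286%, in the same order. They ran from 0.274% to 2.89% with 1 library left out. Deviations of same-numbered libraries correlated at -0.269, 0.149 and -0.299. Thbs2KO replicates 1 and 2 gave near-equal values against each WT library, such as -0.269 and -0.259 against WT replicate 1. The check therefore cannot tell whether the numbers pair the libraries.

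The log2 fold change of Lamb1 (0.01) ran from -0.0665 (WT replicate 2 left out) to 0.144 (WT replicate 1 left out) and was below 0 when Thbs2KO replicate 3 (-0.04) or WT replicate 3 (-0.02) was left out too. That of Nid1 (0.10) ran from -0.063 (Thbs2KO replicate 3 left out) to 0.270 (WT replicate 1 left out) and was -0.00514 with WT replicate 3 left out. That of Nid2 (-0.31) ran from -0.65 (WT replicate 1 left out) to 0.40 (WT replicate 2 left out). With 1 library left out, the Thbs2KO minus WT difference of the log2 ratio ran from -0.052 to 0.28 for Lamb1 to Lamb2, from -2.25 to -1.10 for Lama5 to Lama4, from -0.93 to -0.32 for Lama2 to Lama4, from -0.087 to 0.059 for Lamc1 to the sum of alpha chains and from -0.37 to 0.78 for Nid1 to Nid2. The order of the 6 chains kept 4 places when the union of exons or the coding length replaced the longest coding transcript, since Lamb1 and Lamc1 changed places. The causes were not tested.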

Other observations

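Perlecan carries heparan sulfate chains, and the enzymes that build and edit such chains were measured in a list of 14 genes, all of them tested. By edgeR 0 of 14 passed, against 1.09% of all tested genes. At an unadjusted p below 0.05 there were 3, each lower in Thbs2KO, against 7.56% of all tested genes in that direction. Hs6st2, a heparan sulfate 6-O-sulfotransferase, measured 44.1, 50.9 and 36.7 CPM in Thbs2KO replicates 1, 2 and 3, against 69.2, 81.9 and 129 CPM in WT replicates 1, 2 and 3. Every Thbs2KO library was below every WT library (log2 fold change -1.09 with SE 0.25; Benjamini-Hochberg adjusted p = 0.117 by edgeR). Its relative Hs6st1 measured 85.6, 93.8 and 95.2 CPM in Thbs2KO, against 109, 137 and 169.99 CPM in WT, again without overlap (log2 fold change -0.60, edgeR, Benjamini-Hochberg adjusted p = 0.166). The third was Ext1, a polymerase of the chain, named after its values were seen, with 209 ± 25.2 CPM in Thbs2KO and 261 ± 16.98 CPM in WT (SD, n = 3 each; edgeR, Benjamini-Hochberg adjusted p = 0.259).

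Dystroglycan binds laminin through a sugar chain made by a set of glycosyltransferases. Of 12 such genes tested 0 passed by edgeR, against 1.09% of all tested genes. At an unadjusted p below 0.05 there was 1, higher in Thbs2KO, against 5.72% of all tested genes in that direction. B3galnt2 measured 59.1 ± 4.41 CPM in Thbs2KO and 48.8 ± 3.52 CPM in WT (SD, n = 3 each; edgeR, Benjamini-Hochberg adjusted p = 0.252). Of 10 proteases that act on basement membranes 0 passed by edgeR, against the same 1.09%. At an unadjusted p below 0.05, 1 was lower in Thbs2KO, against 7.56% of all tested genes. That one, Bmp1, a protease that processes procollagen, measured 446.5, 465 and 446 CPM in Thbs2KO, against 542, 522 and 518 CPM in WT (edgeR, Benjamini-Hochberg adjusted p = 0.228). Mmp2, the gelatinase that cleaves collagen IV, measured 744, 698 and 1754 CPM in Thbs2KO, against 809, 340.3 and 393 CPM in WT (adjusted p = 0.411), so its high libraries were Thbs2KO replicate 3 and, within WT, replicate 1.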
